A study of Mus musculus with 6 samples.

Results

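The genes described here are Trp53, which encodes p53, its inhibitors Mdm2 and Mdm4, the receptor gene Adgrb1 that the study placed upstream of them, and 6 genes known as direct p53 targets: Cdkn1a, Ccng1, Sesn2, Trp53inp1, Phlda3 and Zmat3. They were taken by gene name and are 10 of the 54532 genes in the deposited table. RNA had been sequenced from bone marrow (BM) of C57BL/6 mice at day 100 after transplantation, in 3 libraries labelled Phf6 WT (WT 1 to WT 3) and 3 labelled Phf6 KO (KO 1 to KO 3). All donor cells, controls included, carried the activated Janus kinase JAK3 M511I, which a retrovirus with a GFP reporter had brought into lineage-negative progenitors. In the study's methods the WT donors were Phf6 fl/y males without Cre, and the KO donors were Vav1-Cre;Phf6 fl/y males, in which the Vav1 promoter drives Cre in blood-forming cells. Donors and male recipients were 8 weeks old, and irradiated recipients may keep blood cells of their own. The labels name the material as BM and do not say whether GFP-positive cells had been sorted for RNA, a step that would remove the recipients' cells. The genotype labels end in Phf6, Phf7 or Phf8 within each group, and were read as Phf6, the gene that the series' design text names. The comparison of KO with WT asks whether RNA of the Bai1 (Adgrb1), Mdm2 and p53 axis differs when Phf6, a chromatin protein gene mutated in acute leukemia of T cells (T-ALL), is deleted in the presence of active JAK3.

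As background, p53 is a transcription factor that DNA damage and oncogenic stress stabilize. It activates genes that halt the cell cycle (Cdkn1a, Ccng1), genes that favour cell death (Trp53inp1, Phlda3) and genes that restrain growth signals (Sesn2), as well as Mdm2. Mdm2 is the ubiquitin ligase that marks p53 for degradation, so it closes a feedback loop, and Mdm4 is its relative that masks the activation domain of p53. Since p53 is controlled mostly through the stability of its protein, RNA levels of Trp53 do not measure p53 activity, which is commonly read from its targets.

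Levels are given as FPKM, fragments scaled to gene length and library size, so they can be compared between genes. Reads behind each value were recovered from FPKM and gene length, and came to between 13015823 and 18235095 per library. Differences between the groups are given as the difference in mean log2(FPKM + 1), KO minus WT, and were tested with limma over all 13393 genes reaching an FPKM of 1 in 3 or more libraries. The threshold was an adjusted p of 0.05. The library WT 2 stood apart: its log values correlated with those of WT 1 and WT 3 at r of 0.779 and 0.746, against 0.948 between WT 1 and WT 3 and 0.963 to 0.973 among the KO libraries (across genes, which are not independent). Genes of 8000 bases or more held 6.74% of the reads in WT 2 and between 22.9% and 26.5% in the other libraries. The results for each gene are therefore given with and without WT 2. Phf6 itself had a log2 difference of -0.073 (limma, adjusted p = 0.893), with 7.47, 3.67 and 8.02 FPKM in the WT and 6.73, 5.50 and 5.11 FPKM in the KO libraries, and a value per gene cannot show whether the floxed exons are missing. The group names used here are thus those of the labels.

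The cells also differed between the groups. The summed FPKM of 14 neutrophil markers was between 6829 and 94845 in the WT and between 93.9 and 288 in the KO libraries, and 14 of 14 passed the test as lower in KO. Over all genes tested 13.1% were higher and 13.3% lower. Csf3r, Cxcr2 and Ly6g were under 1 FPKM in every KO library, and Mmp8 reached it in KO 3 only. These markers entered the test through WT, which by itself makes a lower value in KO. The sum of 10 monocyte and macrophage markers was between 599 and 5005 in the WT and between 16.4 and 29.9 in the KO libraries, and that of 10 B cell markers was between 711 and 2458 in the WT and between 16.7 and 80.4 in the KO libraries. Erythroid markers summed to 68124 in WT 2 and to between 72.8 and 559 in the other libraries. The 12 T cell markers summed to between 977 and 1803 in the WT and between 1178 and 1490 in the KO libraries and were present in every library, but within this list Cd4 was higher in KO (1.45 to 2.90 FPKM in WT and 50.5 to 98.4 FPKM in KO; limma, adjusted p = 0.000415) and Cd5 was lower (26.4 to 32.8 and 4.91 to 15.3 FPKM; adjusted p = 0.0200). Of 8 NK cell markers, whose sum was between 743 and 1299 in the WT and between 581 and 649 in the KO libraries, 6 were lower and 1 was higher among the 7 tested. Klrb1c, Klrk1 and Eomes, too, were under 1 FPKM in every KO library and entered the test through WT alone. Klrd1 was at 106 to 204 FPKM in WT and 0.496 to 1.63 FPKM in KO, while the granzyme gene Gzma was at 12.9 to 50.8 and 566 to 615 FPKM. No marker of these lists was at 0 in all libraries of a group. In bulk RNA, fewer cells of a type and less RNA per cell cannot be told apart, and the part of these cells in each result below was not tested.

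The levels of Trp53 RNA overlapped between the groups. Trp53 (ENSMUSG00000059552, GRCm38 chr11:69580359-69591873, plus strand) had 22.5, 23.4 and 29.1 FPKM in WT 1, WT 2 and WT 3. It had 26.3, 28.6 and 34.0 FPKM in KO 1, KO 2 and KO 3. The ranges overlapped, with WT 3 above KO 1 and KO 2, and only KO 3 lay above all WT libraries. The mean was 25.0 ± 3.57 in WT and 29.6 ± 3.95 in KO (SD, n = 3), a log2 difference of 0.24 with 95% limits of -0.33 and 0.80 that did not pass the test (limma, adjusted p = 0.517). Without WT 2 the difference was 0.19 (adjusted p = 0.383). These limits leave room for a rise of up to 0.80 or a fall of up to 0.33 on the log2 scale. A processed pseudogene, Trp53-ps, had at most 20 reads in any library, against at least 1115 for Trp53. How reads that match both copies were counted is not given, so these counts cannot show how many were shared. Among protein-coding genes, those whose centred log2(FPKM + 1) profile over the 6 libraries lay closest to that of Trp53 were Tmem173 (root mean square difference 0.029), which encodes the DNA sensor adaptor STING, Fkbp3 (0.055) and Coq2 (0.070).

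For Mdm2, the ligase, the difference between the groups was smaller than the spread of the libraries. Mdm2 (ENSMUSG00000020184, chr10:117688875-117710758, minus strand) had 27.5, 14.1 and 23.6 FPKM in WT 1, WT 2 and WT 3. Its 22.5, 21.3 and 20.3 FPKM in KO 1, KO 2 and KO 3 fell inside the WT range. The means were 21.7 ± 6.89 in WT and 21.3 ± 1.09 in KO (SD, n = 3). The log2 difference was 0.023, between -0.69 and 0.74 (limma, adjusted p = 0.966), and its sign was not fixed: it was -0.020 after median-of-ratios scaling, -0.25 without WT 2 (adjusted p = 0.157), -0.013 without KO 1 and -0.32 with libraries weighted by their quality (adjusted p = 0.0430), with adjusted p between 0.0430 and 0.988 in the 16 alternatives tried. WT 2 was the lowest of the 6 libraries. The genes nearest to Mdm2 in profile were Clint1 (root mean square difference 0.048), Adam10 (0.053) and Arsk (0.063).

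Mdm4 varied more within WT than between the groups. Mdm4 (ENSMUSG00000054387, chr1:132959484-133030561, minus strand) had 35.9 FPKM in WT 1 and 40.9 FPKM in WT 3, but 7.76 FPKM in WT 2. The KO libraries were close together at 33.5, 31.6 and 33.6 FPKM, above WT 2 and below the other WT libraries. The log2 difference was 0.51 (95% limits -0.94 and 1.95, adjusted p = 0.586), and -0.22 without WT 2 (adjusted p = 0.184). Mdm4 is the longest of these genes in the table, at 14798 bases.

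The balance of p53 and its inhibitors was also read as ratios of FPKM within a library, which no scaling of a library can move. A difference that depends on gene length, as in WT 2, can still move them. Mdm2 over Trp53 was 1.22, 0.602 and 0.811 in WT 1, WT 2 and WT 3, and 0.855, 0.745 and 0.597 in KO 1, KO 2 and KO 3. The ratios overlapped, with WT 1 highest and KO 3 lowest, and the log2 difference of -0.22 had a two-sided exact permutation p = 0.6. Mdm4 over Mdm2 was 1.31, 0.550 and 1.73 in the WT and 1.49, 1.48 and 1.66 in the KO libraries (log2 difference 0.52, exact permutation p = 0.5). Cdkn1a over Trp53, the RNA of a target per unit of p53 RNA, was 0.296, 0.617 and 0.0949 in the WT and 0.0690, 0.152 and 0.193 in the KO libraries (log2 difference -1.03, exact permutation p = 0.4). Single libraries weighed on these differences: without WT 2 and without WT 3, Mdm4 over Mdm2 was at 0.036 and 0.86, and Cdkn1a over Trp53 at -0.41 and -1.76. Cdkn1a over Trp53 was at -0.59 without KO 1, and Mdm2 over Trp53 at 0.052 without WT 1, -0.46 without WT 2, -0.34 without KO 1 and -0.078 without KO 3. Over the 3 ratios the adjusted p was 0.6 for each. With 3 libraries against 3 this test cannot give a p under 0.1.

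Adgrb1, the receptor also called Bai1 and known from brain, was close to the detection limit in all libraries. Adgrb1 (ENSMUSG00000034730, chr15:74516195-74589465, plus strand) was covered by 5, 10 and 2 reads in the WT libraries (exact Poisson 95% intervals 1.62 to 11.7, 4.80 to 18.4 and 0.242 to 7.22 reads). It had 0 reads in each of KO 1, KO 2 and KO 3 (exact Poisson upper 95% limit 3.69 reads each). A floor of 3 reads per library was set, that is 0.0223, 0.0264 and 0.0258 FPKM. The WT values were 0.0449, 0.118 and 0.0179 FPKM, with WT 3 under the floor of every KO library. WT therefore held 17 reads in all and KO 0, and the observed WT mean was 2.42 times the mean of the KO floors. Without WT 2, which gave most of these reads, the WT mean was 1.26 times that of the floors. Both values take the WT reads as observed, so they are not lower bounds of the difference. Such intervals and floors cover counting error only. Adgrb1 did not reach the level needed for testing. Of its relatives, Adgrb2 had 0.859 to 1.29 FPKM in WT and 0.985 to 1.46 FPKM in KO (log2 difference 0.17, adjusted p = 0.570), and Adgrb3 had 1 read, in WT 2.

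**Figure D1:**
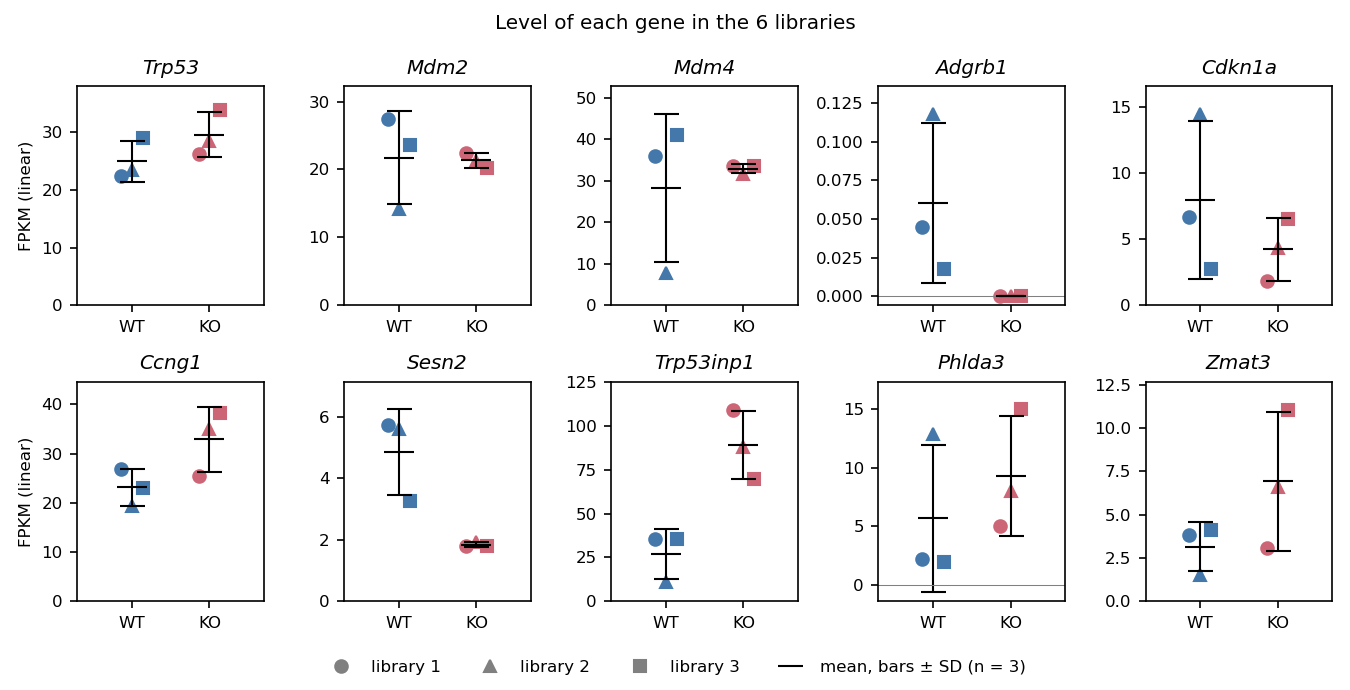
FPKM (linear axis) of each of the 10 genes in WT 1 to WT 3 (blue) and KO 1 to KO 3 (red); circles, triangles and squares are libraries 1, 2 and 3, and black bars are the mean ± SD (n = 3). Sesn2 and Trp53inp1 are the tested genes whose groups do not overlap, while WT 2 lies away from the other WT libraries for Trp53inp1, Mdm4, Cdkn1a and Phlda3.

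Of the 9 genes tested, 1 target was higher and 1 lower in KO at the threshold, and 7 did not pass. Over all genes tested 26.4% passed (13.1% higher and 13.3% lower), so 2 of 9 is close to that share. The groups did not overlap for 2 of the 9, against 49.1% of all genes. The median log2 difference of the 9 was 0.48, beside 0.086 for all genes. Without WT 2, 3 of the 9 passed (2 higher and 1 lower), beside 52.0% of all genes. The median log2 difference of the 9 was then 0.19, beside 0.040 for all genes. The difference was above 0 for 7 of the 9 with all libraries and for 5 of them without WT 2.

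Trp53inp1 was the target that rose. Its product is a nuclear protein that promotes p53-dependent death and arrest. Trp53inp1 (ENSMUSG00000028211, chr4:11156431-11174379, plus strand) had 35.5, 10.6 and 35.2 FPKM in WT 1, WT 2 and WT 3. It had 109, 88.1 and 70.0 FPKM in KO 1, KO 2 and KO 3. Every KO library lay above every WT library, and even KO 3, the lowest of KO, exceeded WT 1. The mean FPKM was 3.28-fold higher in KO (89.1 ± 19.5 against 27.1 ± 14.3, SD, n = 3), with a log2 difference of 1.83 (SE 0.50, 95% limits 0.63 and 3.04, limma adjusted p = 0.0382). Without WT 2 the difference was smaller and its spread narrower, at 1.28 (adjusted p = 0.00362). It was positive in 16 of 16 alternatives but past the threshold in 8 of them, with adjusted p from 0.000444 to 0.137. The call was lost without WT 1 (limma, adjusted p = 0.0517), KO 1 (0.137), KO 2 (0.124) or KO 3 (0.0918). Trp53inp1 stood at the 96.1 to 98.0 percentile of tested genes in the KO libraries, and at the 89.3, 64.5 and 90.0 percentile in WT 1, WT 2 and WT 3.

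Sesn2, whose stress-induced product restrains mTORC1, was the target that fell. Sesn2 (ENSMUSG00000028893, chr4:132492032-132510501, minus strand) had 5.74, 5.61 and 3.25 FPKM in WT 1, WT 2 and WT 3. It had 1.79, 1.92 and 1.81 FPKM in KO 1, KO 2 and KO 3. The lowest WT library, WT 3, was above the highest KO library, and the KO libraries were close together. The mean FPKM in KO was 0.378 of that in WT (1.84 ± 0.0699 against 4.87 ± 1.40, SD, n = 3), and the log2 difference was -1.02 (SE 0.26, 95% limits -1.65 and -0.38, limma adjusted p = 0.0322). Without WT 2 it was -0.92 (adjusted p = 0.0184). The difference was negative in 16 of 16 alternatives and past the threshold in 8 of them, with adjusted p from 0.000543 to 0.446, the last after rescaling to TPM. The call was lost without WT 1 (limma, adjusted p = 0.0967), KO 1 (0.119), KO 2 (0.119) or KO 3 (0.121). Gm12981, which overlaps Sesn2 over 6089 bases on the same strand, had a mean of 0.494 FPKM in WT and 0.396 FPKM in KO, and no strand setting would separate reads from the shared stretch.

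Cdkn1a, which encodes the cyclin-dependent kinase inhibitor p21 and is the target most often used as a readout of p53, spread widely in both groups. Cdkn1a (ENSMUSG00000023067, chr17:29090976-29100727, plus strand) had 6.66, 14.5 and 2.76 FPKM in WT 1, WT 2 and WT 3. It had 1.81, 4.34 and 6.56 FPKM in KO 1, KO 2 and KO 3. The highest KO library was close to WT 1 and the lowest WT library fell between KO 1 and KO 2. The means were 7.96 ± 5.96 in WT and 4.24 ± 2.37 in KO (SD, n = 3), a log2 difference of -0.66 with limits of -2.10 and 0.79 (limma, adjusted p = 0.477). It was -0.15 without WT 2 (adjusted p = 0.816) and negative in 15 of 16 alternatives. After rescaling to TPM, which moved all genes up, it was 0.056, with the median of all genes at 0.86. The genes nearest to Cdkn1a in profile were Anxa2, Tuba1c and Srm, each at a root mean square difference of 0.26 and so farther from it than the neighbours of Trp53 and Mdm2 were from theirs.

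Ccng1 encodes cyclin G1, which takes part in the Mdm2 feedback. Ccng1 (ENSMUSG00000020326, chr11:40748552-40755311, minus strand) had 26.8, 19.4 and 23.1 FPKM in the WT libraries and 25.4, 35.0 and 38.2 FPKM in KO 1, KO 2 and KO 3. KO 2 and KO 3 were above all WT libraries and KO 1 was not, and the log2 difference of 0.48 (95% limits -0.15 and 1.12) did not pass (limma, adjusted p = 0.236). Zmat3 encodes an RNA-binding zinc finger protein that acts on splicing and RNA stability. Zmat3 (ENSMUSG00000027663, chr3:32334792-32366014, minus strand) had 3.84, 1.51 and 4.08 FPKM in the WT libraries and 3.08, 6.60 and 11.0 FPKM in KO 1, KO 2 and KO 3. Again KO 2 and KO 3 exceeded all WT libraries while KO 1 lay within their range (log2 difference 0.87, limits -0.30 and 2.03, adjusted p = 0.246). For Zmat3 the difference without WT 2 was 0.54 (limma, adjusted p = 0.338).

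Phlda3, which encodes an inhibitor of Akt signalling, was the gene whose call depended most on WT 2. Phlda3 (ENSMUSG00000041801, chr1:135766119-135769136, plus strand) had 2.20 and 1.95 FPKM in WT 1 and WT 3 but 12.9 FPKM in WT 2. It had 4.99, 8.03 and 14.9 FPKM in KO 1, KO 2 and KO 3. The KO libraries were all above WT 1 and WT 3, and only KO 3 was above WT 2. With all libraries the log2 difference was 0.91 (95% limits -0.74 and 2.55, limma adjusted p = 0.386). Without WT 2 it was 1.63 and passed (adjusted p = 0.0175).

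**Figure D2:**
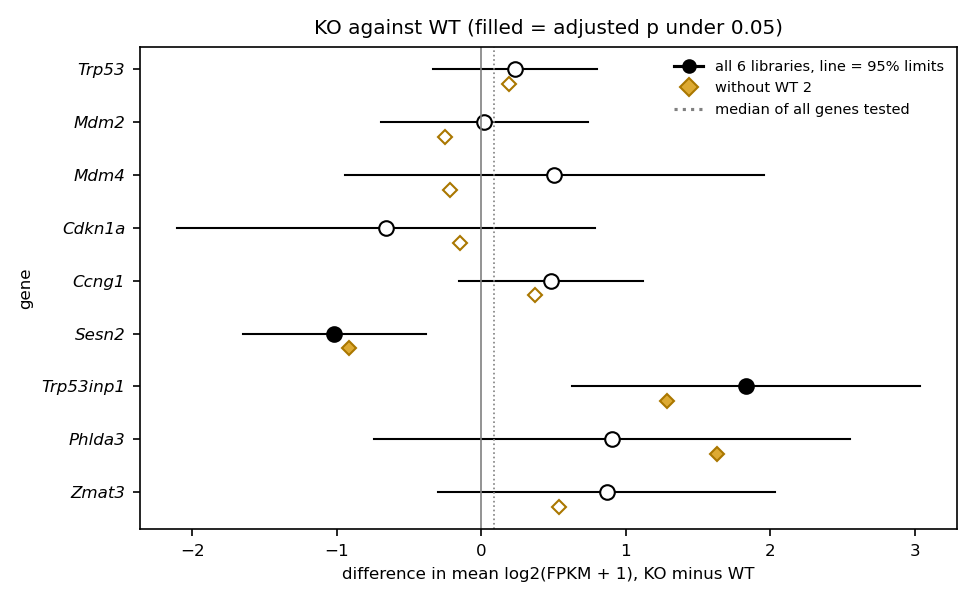
Difference in mean log2(FPKM + 1), KO minus WT, for the 9 genes tested, with 95% limits from limma (circles, 6 libraries) and without WT 2 (diamonds); filled symbols passed an adjusted p of 0.05 and the dotted line is the median of all genes tested, 0.086. Sesn2 and Trp53inp1 are filled in both, Phlda3 only without WT 2, and Mdm2 and Mdm4 change side of 0.

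The scale of the libraries bears on these directions. After rescaling to TPM the median of all genes moved from 0.086 to 0.86 and 67.8% of the calls were higher in KO, against 49.6% as deposited; with voom on the recovered reads the values were 0.56 and 60.2%. Relative to that median the members moved little: Trp53 was at 0.15 as deposited, 0.21 in TPM and 0.094 with voom, Mdm2 at -0.063, -0.015 and -0.13, and Cdkn1a at -0.74, -0.80 and -0.97. Trp53inp1 was at 1.75, 1.83 and 1.73 above the median, and Sesn2 at -1.10, -1.33 and -1.50.

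The distance of WT 2 from the other WT libraries followed the length of the genes in part. In log2(FPKM + 1), WT 2 minus the mean of WT 1 and WT 3 was 2.18 for Phlda3, the shortest of the 9 at 1559 bases, and 1.53 for Cdkn1a (3553 bases). It was 0.30 for Sesn2, -0.12 for Trp53 and -0.34 for Ccng1, all between 3475 and 4045 bases. Cdkn1a lies in this range as well, so genes of similar length differed. The distance was -0.81 for Mdm2 (5083 bases) and -1.65 for Trp53inp1 (6475 bases). The longest genes, Zmat3 (11435 bases) and Mdm4, were at -0.98 and -2.17. Spearman's rho between length and this distance was -0.9 over the 9 genes and -0.24 over all genes tested, as a description across genes of the same libraries. The median distance of all tested genes was 0.79 between 1000 and 2000 bases, 0.28 between 2000 and 4000, -0.30 between 4000 and 8000 and -0.90 above, but -0.29 under 1000 bases. With a trend on length taken off each library, Sesn2 (limma, adjusted p = 0.0240) and Trp53inp1 (log2 difference 1.68, adjusted p = 0.0202) were past the threshold, and the other 7 were not.

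**Figure D3:**
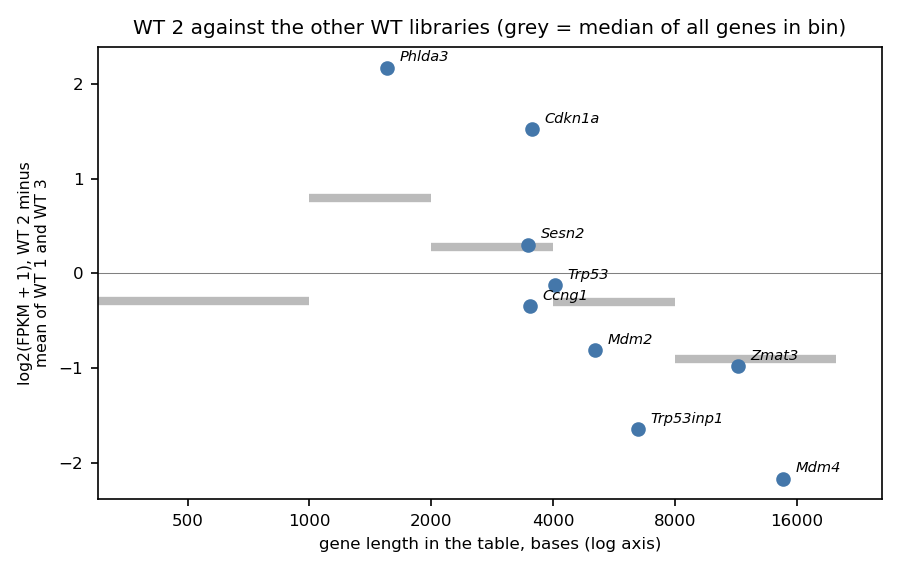
Log2(FPKM + 1) in WT 2 minus the mean of WT 1 and WT 3 (vertical axis) against gene length in bases (log axis) for the 9 genes tested; grey bars are medians of all tested genes in 5 length bins. Phlda3 and Cdkn1a lie above 0, and Trp53inp1 and Mdm4 more than 1 log2 unit below it.

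The KO libraries differed among themselves for several of these genes. KO 1 was the lowest and KO 3 the highest library for 5 of the 9 genes, namely Cdkn1a, Zmat3, Phlda3, Ccng1 and Trp53, as for 19.5% of all genes tested. Cdkn1a was 3.62 times as high in KO 3 as in KO 1 (375 against 120 reads, exact Poisson 95% intervals 338 to 415 and 99.5 to 143), Zmat3 3.58 times (2034 against 657 reads) and Phlda3 2.99 times (375 against 145 reads). These ratios were at the 97.6, 97.5 and 96.8 percentile of all genes tested, whose median ratio was 1.00, and 5.60% of all genes exceeded a ratio of 2. Ccng1 (38.2 against 25.4 FPKM) and Trp53 (1.29 times) differed less between KO 3 and KO 1. Sesn2 (1.01) and Mdm4 (1.01) did not share the order, and Mdm2 (0.903) and Trp53inp1 (0.642) had KO 1 highest and KO 3 lowest. Of the other direct targets 8 of 26 shared it (30.8%), Ei24 (2.07), Bax (1.89), which promotes the release of cytochrome c, and the nuclease gene Aen (1.84) with the largest ratios. A ratio of 2 was exceeded by 1 of the 26 (3.85%). Others were lower in KO 3 than in KO 1, such as Btg2 (0.461), Fas (0.593) and Ddit4 (0.629). The genes of that list were named here after their values were seen, and the pattern was also chosen in this way. Each library is 1 sample, so the order is a description without a test.

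**Figure D4:**
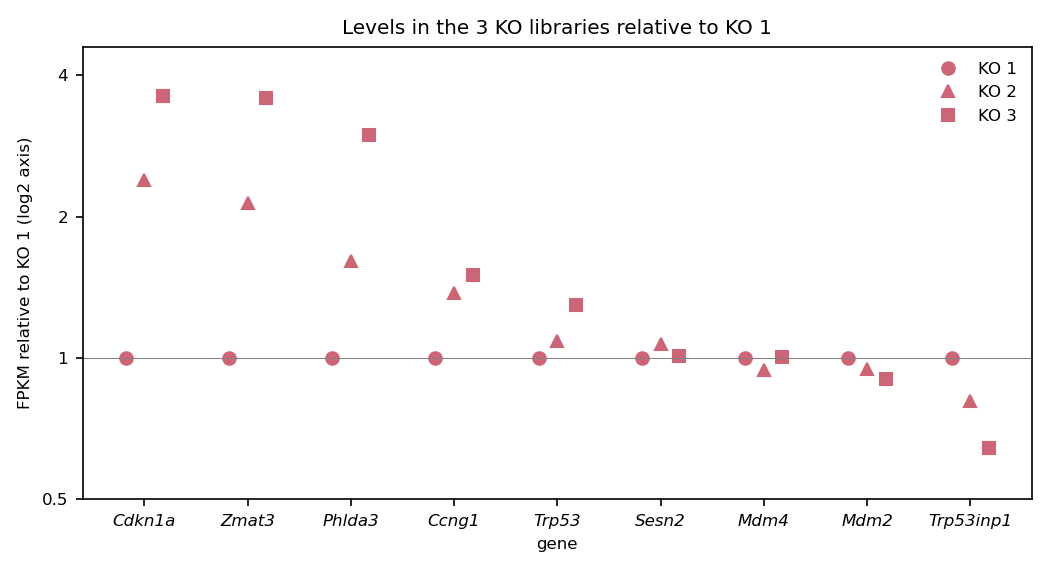
FPKM of the 9 tested genes in KO 1 (circles), KO 2 (triangles) and KO 3 (squares), each divided by its value in KO 1 (log2 axis), with genes sorted by KO 3. Cdkn1a, Zmat3 and Phlda3 reach 3.62, 3.58 and 2.99 in KO 3, while Sesn2, Mdm4 and Mdm2 stay near 1 and Trp53inp1 is at 0.642.

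RefSeq promoter sequences (GRCm38.p6, 250 bases before to 50 after the start) were found for 7 of the 10 genes, and are shown where they hold the p53 half-site consensus, the 10-base unit that p53 dimers contact and that usually comes as an adjacent pair. The consensus reads the same on both strands, so 1 search covers both. It occurred in 1 or more copies in 8.36% of the 32851 promoters of this length, and an adjacent pair with at most 1 letter off in 29 of them (0.0883%). It was found in 4 of the 9 promoter entries of these genes: those of Trp53, Mdm2, Ccng1 and the first of Cdkn1a, with a pair in Ccng1 and Cdkn1a. Of 34 promoter entries of other direct p53 targets, 10 held a unit (29.4%) and 0 held a pair. Capitals mark single units that match and, for Ccng1 and Cdkn1a, the whole adjacent pair, in which 1 letter is off, in the windows of 100 bases below, written 5′ to 3′ on the strand of the gene. The windows are Trp53 at chr11:69580244-69580343 (plus), Mdm2 at chr10:117710885-117710984 (minus), Cdkn1a at chr17:29090866-29090965 (plus) and Ccng1 at chr11:40755422-40755521 (minus).
Trp53: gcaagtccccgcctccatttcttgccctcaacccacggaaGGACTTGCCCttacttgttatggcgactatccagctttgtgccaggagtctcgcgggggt
Mdm2: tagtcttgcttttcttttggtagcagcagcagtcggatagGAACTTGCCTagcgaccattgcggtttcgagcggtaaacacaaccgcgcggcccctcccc
Cdkn1a: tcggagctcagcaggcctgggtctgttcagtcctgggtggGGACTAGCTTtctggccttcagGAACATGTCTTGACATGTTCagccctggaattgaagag
Ccng1: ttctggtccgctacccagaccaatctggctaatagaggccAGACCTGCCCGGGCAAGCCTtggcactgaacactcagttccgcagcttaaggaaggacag
The match lay 75 bases before the start in Trp53 and 186 in Mdm2. In the first entry of Cdkn1a 2 single units were found, at 73 and 51 bases before its start, and the pair began at the second of them. The second entry of Cdkn1a, with another start (chr17:29093519-29093818, plus), held no match. In Ccng1 the pair began 195 bases before the start. Cdkn1a and Ccng1, the genes with a pair, both had KO 3 highest and KO 1 lowest, as did Trp53 with a single unit and Phlda3 with none, while Mdm2 did not. The windows of Mdm4, Sesn2 and Phlda3 held no match to these letters, and no entry was found for Adgrb1, Trp53inp1 or Zmat3. A match is a description of the sequence and not a site of binding.

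Within WT the order of levels was Mdm4 (28.2 FPKM), Trp53inp1, Trp53, Ccng1, Mdm2, Cdkn1a, Phlda3, Sesn2, Zmat3 (3.14 FPKM) and Adgrb1 (0.0602 FPKM), and the ranges of all neighbours overlapped except those of Zmat3 and Adgrb1. Within KO the order was Trp53inp1 (89.1 FPKM), Mdm4, Ccng1, Trp53, Mdm2, Phlda3, Zmat3, Cdkn1a, Sesn2 (1.84 FPKM) and Adgrb1. There Trp53inp1 stood apart at the top, Mdm4, Ccng1 and Trp53 overlapped, Mdm2 stood apart below them, and Phlda3, Zmat3, Cdkn1a and Sesn2 formed an overlapping group. The overlap of Trp53inp1 with Trp53 and Ccng1 in WT came from WT 2 (10.6 FPKM), since in WT 1 and WT 3 its 35.5 and 35.2 FPKM were above both genes and below Mdm4. That of Mdm2 with Cdkn1a also came from WT 2, at 14.1 and 14.5 FPKM. In WT 1 and WT 3 Mdm2 was at 27.5 and 23.6 FPKM and Cdkn1a at 6.66 and 2.76 FPKM.

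Of 31 further genes known as direct p53 targets 26 were tested, of which 3 were higher, 6 were lower and 17 did not pass, with a median log2 difference of -0.040. The share of all genes that passed was 26.4% (13.1% higher and 13.3% lower), and the list is described beside it without a test. By role, of 9 tested genes of apoptosis 1 was higher and 2 were lower, of 8 of arrest and feedback 1 was higher and 4 were lower, and of 9 of repair, metabolism and signalling 1 was higher and 0 were lower. Both directions thus occurred, as they did for Trp53inp1 and Sesn2. Lower in KO were Plk3 (51.3, 50.2 and 35.2 FPKM in WT and 0.870, 0.778 and 1.08 in KO; log2 difference -4.59, adjusted p = 0.000249) and Plk2 (-2.52, adjusted p = 0.00129), kinases of the stress response. Pmaip1, the gene of the BH3-only death protein Noxa, had 22.9, 18.5 and 30.1 FPKM in WT and 0.0609, 0.168 and 0.117 FPKM in KO (log2 difference -4.45, adjusted p = 0.000271). The death receptor gene Tnfrsf10b (-2.77, adjusted p = 0.00179) and Gadd45a, a gene of growth arrest after DNA damage (-2.63, adjusted p = 0.0186), were lower as well. Higher in KO were Ddit4, an mTORC1 inhibitor gene with 16.1, 16.0 and 20.8 FPKM in WT and 218, 147 and 137 FPKM in KO (3.15, adjusted p = 0.000767), Pidd1, which encodes a death domain scaffold (1.43, adjusted p = 0.00793), and the phosphatase gene Ptprv (0.78, adjusted p = 0.0486). The mTORC1 inhibitor genes Ddit4 and Sesn2 thus had opposite differences. Perp, Eda2r, Gdf15, Ak1 and Lif were too low to test. Pmaip1, Plk2 and Tnfrsf10b were under 1 FPKM in every KO library and so entered the test through WT alone, where they were high, which by itself makes a lower value in KO. Plk3 reached 1 FPKM in KO 3 only (1.08 FPKM), so it too met the filter through WT. Without WT 2, 5 of the 26 were higher and 9 lower, a total near the 52.0% of all genes that passed then.

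Of 29 genes whose products act on p53 or Mdm2, 26 were tested, of which 2 were higher, 2 were lower and 22 did not pass, with a median log2 difference of 0.29. This total was under the 26.4% of all genes that passed. Cdkn2a had 0.829, 8.06 and 1.87 FPKM in WT 1, WT 2 and WT 3 and 12.7, 24.8 and 44.7 FPKM in KO 1, KO 2 and KO 3, with every KO library above every WT library (log2 difference 2.80, SE 0.70, limma adjusted p = 0.0276). This locus encodes both the Mdm2 inhibitor p19Arf and the kinase inhibitor p16, which values per gene cannot separate. It shared the order of Cdkn1a among the KO libraries, with KO 3 at 3.51 times KO 1. Chek1, a checkpoint kinase gene, was also higher (1.60, adjusted p = 0.0166). Hipk2, a kinase gene whose product phosphorylates p53 (-2.41, adjusted p = 0.0206), and Ppp1r13b, a cofactor gene that directs p53 to death genes (-1.28, adjusted p = 0.00646), were lower. Hipk2 was under 1 FPKM in every KO library and so, too, entered the test through WT alone. Of the p53 family, Trp63 had 0 reads in all libraries and Trp73 was too low to test, as was Ppp1r13l. Without WT 2, 7 of the 26 were higher and 5 lower, beside 52.0% of all genes, and the median log2 difference of the 26 was 0.054.

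**Figure D5:**
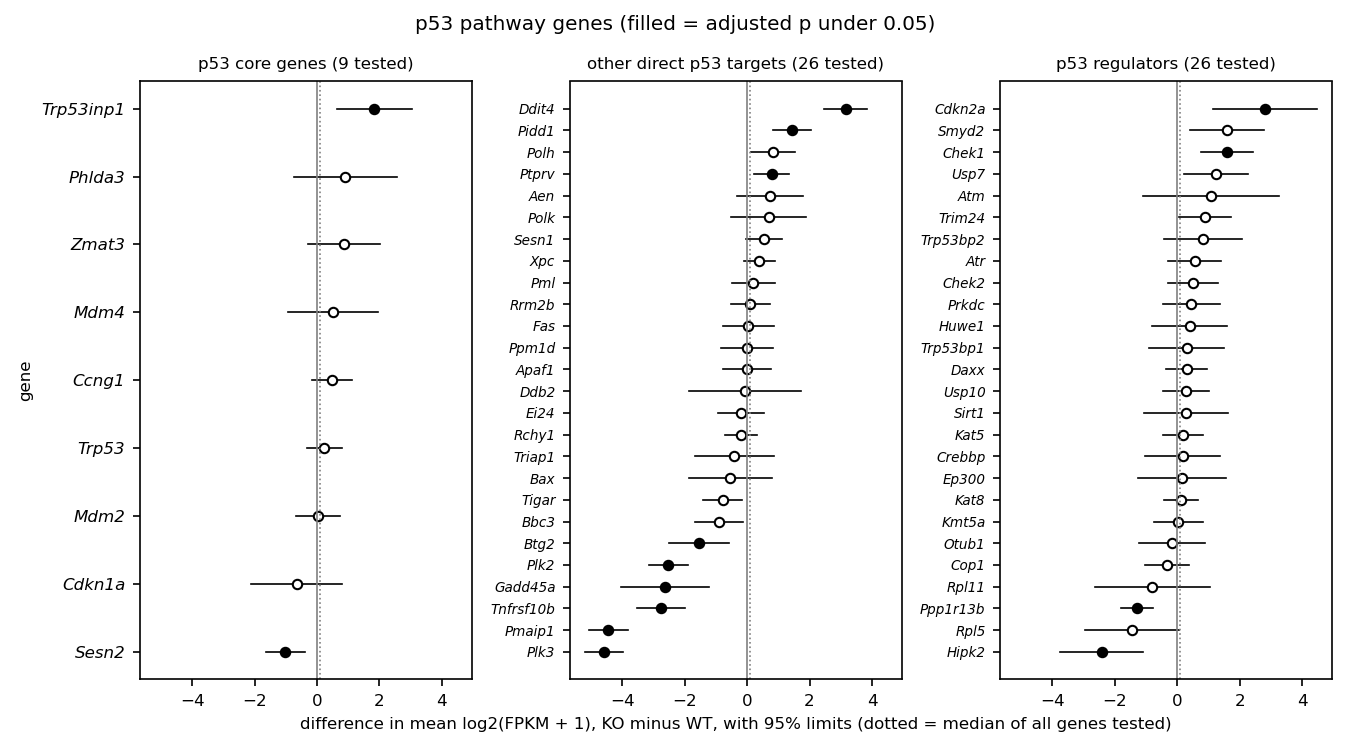
Difference in mean log2(FPKM + 1), KO minus WT, with 95% limits, for the 9 tested genes described here (left), 26 other direct p53 targets (middle) and 26 p53 regulators (right); filled points passed an adjusted p of 0.05 and the dotted line is the median of all genes tested. Passing genes lie on both sides of 0 in each panel, from -4.59 for Plk3 to 3.15 for Ddit4.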

How the data were processed

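The authors aligned paired-end reads and counted them per gene (HISAT2 2.0.5 and featureCounts 1.5.0-p3, per the labels' processing notes, on GRCm38/mm10), and deposited 1 table of FPKM per gene, normalized to gene length and library size. The annotation release and the strand setting are not given in the sources used here. Whole reads were recovered for 100% of values (tolerance 0.01). They came to between 0.827 and 1.55 times the library size by which the authors had divided, with WT 2 highest, so a scaling factor is part of the FPKM. Positions of the 10 genes equalled those in GENCODE M21 for 10 of 10. For 7 of the 9 promoter entries, bases after the start were found in a GENCODE M21 transcript of the gene.

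The study tested counts; since the deposited unit is FPKM, log2(FPKM + 1), which understates changes of low genes, was tested here with limma 3.58.1 in R 4.3.3 (lmFit, eBayes with trend, two-sided; Benjamini-Hochberg over 13393 genes; Python 3.11.15 and Matplotlib 3.10.9 for sequences and figures). The labels do not tie libraries to animals, so p-values measure the spread between these samples, which may be technical. No 2 libraries agreed within sampling noise. The members and gene lists were chosen with earlier results of these data known. Named beside the members were Phf6, the Adgrb relatives, up to 5 genes per direction and pathway list with the smallest p, and the 3 nearest profiles of Trp53, Mdm2 and Cdkn1a. In simulated data of 13393 genes for this comparison, 49% of 100 genes changed by 2 and 85% of 100 changed by 4 on the log2 scale were called, with 11 false calls. Only those genes were changed there, while 26.4% of genes were called in the data. Both groups were also given the same SD for each gene, so these rates need not hold for the data. Alternatives were pseudocounts of 0.1 and 0.5, no filter, TPM, median-of-ratios and quantile scaling, array weights, a replicate block, voom, leaving out each library, and a length trend taken off.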

Additional observations from a re-analysis of the deposited data

How the results depend on the processing

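Over 16 alternatives each, Trp53, Ccng1 and Zmat3 kept their direction and stayed short of the threshold. The number of members past the threshold, 2 in the report, was 0 without a filter on low values, 1 after rescaling to TPM, 4 with array weights, 0 with voom and 0 to 3 when each library was left out, the highest without WT 2. Voom, which called 3338 of all genes, was fitted to the recovered reads. Sesn2 and Trp53inp1 lost the threshold without WT 1 and without any KO library. Phlda3 passed in TPM (1.86), with array weights and without WT 2. Cdkn1a was at 0.056 in TPM, where the median of all genes was 0.86 and Cdkn1a lay at -0.80 relative to it, and was negative elsewhere. The sign of Mdm2 turned after median-of-ratios scaling (-0.020), with array weights (-0.32), with the length trend removed, an alternative chosen after seeing the data (-0.063), and among the left-out libraries (-0.25 to 0.21), and that of Mdm4 with array weights (-0.14) and among the left-out libraries (-0.22 to 0.91). Other direct p53 targets past the threshold numbered 9 in the report, 19 with array weights and 6 to 14 when a library was left out. Regulators of p53 numbered 4, and 2 without a filter, 11 with array weights, 2 with voom and 1 to 12 when a library was left out. All genes numbered 3539, 8461 with array weights and 1934 to 6967 when a library was left out, the highest without WT 2. When a library was left out, the log2 difference of Mdm2 over Trp53 lay between -0.46 and 0.052, reversed without WT 1, that of Mdm4 over Mdm2 between 0.036 and 0.86, and that of Cdkn1a over Trp53 between -1.76 and -0.41. Deviations from the group means correlated at 0.0954, 0.105 and -0.153 between same-numbered libraries, and at -0.195 to 0.232 between the others. With 3 libraries per group these values cannot decide whether the numbers pair the samples. With a replicate block, 0 members, 7 other targets, 4 regulators and 2676 of all genes passed, and the log2 differences of the 3 ratios were -0.22, 0.52 and -1.03. At these depths a gene of under 3 reads, such as Adgrb1 in KO, cannot be told from 0. The cause of each change was not tested.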
